A study of Danio rerio with 9 samples.

Results

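Neurons were the cells examined here, in 2 single-cell RNA libraries from zebrafish at 2.5 days post fertilization (dpf). The cells had been sorted for dim fluorescence of a cd41 reporter transgene, which labels blood stem and progenitor cells and thrombocytes. A barcode was counted as a neuron when at least 3 of the 7 genes elavl3, elavl4, gng3, sncb, stmn1b, snap25a and stmn2a were detected with at least 6 unique molecular identifiers (UMIs) in all. This rule chose 55 of 2200 barcodes in the WT library and 65 of 1173 in the runx1-/- library, 120 of the 29994 barcodes that passed the filters in the 9 libraries of the series. WT animals carried tg(cd41:GFP) on the EK strain, and runx1-/- animals carried the same transgene and strain with the 8 bp deletion allele named del8, hg96. The sort therefore rests on a transgene promoter and not on cd41 protein. The labels do not give the number of animals pooled, and there was 1 library per genotype. No difference between genotypes could be tested, and every interval below is at 95% and covers counting error only.

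Neurons carry out signalling by releasing transmitters from vesicles at synapses, and their type is set by the transmitter they make and by combinations of transcription factors. In the zebrafish larva they are already diverse at this age, with sensory, inter- and motor neurons in the spinal cord and hindbrain and early neurons in the forebrain and retina. Several blood regulators, among them gata2a, gata3 and tal1, also take part in the development of inhibitory interneurons. A cd41 sort aims at blood, and neurons are not a cell type it is meant to collect.

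The WT library held 27927467 UMIs and the runx1-/- library 12157646. Neurons were among the shallowest barcodes of both. Their median depth was 3577 UMIs in WT and 3643 UMIs in runx1-/-, against 12444 and 8065 UMIs in the other barcodes. No deposited barcode had under 2915 UMIs in WT or 2907 UMIs in runx1-/-, so shallower neurons, if there were any, were not analysed here. After every barcode was thinned to 2900 UMIs, the median neuron had more genes than the median other barcode, with 1064 against 775 in WT and 953 against 714 in runx1-/-. The libraries shared 3 barcode sequences, none of them among the neurons.

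The 7 genes of the rule were the source of the choice, and their values are a description only. The RNA-binding protein genes elavl3 and elavl4 gave 257 and 434 UMIs in the 55 WT neurons and 238 and 372 UMIs in the 65 runx1-/- neurons. The G protein subunit gene gng3 gave 375 and 402 UMIs in the same order. The synuclein gene sncb gave 294 and 373 UMIs, and the stathmin gene stmn1b, whose product binds tubulin, gave 273 and 237. The vesicle fusion gene snap25a gave 86 and 124 UMIs, and a second stathmin gene, stmn2a, gave 134 and 137. All 7 genes were present in 24 WT and 20 runx1-/- neurons. Rule UMIs per neuron ran from 6 to 91 in WT with a median of 32, and from 9 to 69 in runx1-/- with a median of 23.

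The label was checked with 53 other neuronal genes that the rule did not use, such as synaptic vesicle, axon growth and cytoskeleton genes. At 2900 UMIs a median neuron showed 17 of them in WT and 15 in runx1-/-, and a median other barcode showed 0 in either library. At least 8 of the 53 were present in 51 WT barcodes, of which 48 were neurons by the rule, and in 59 runx1-/- barcodes, of which 55 were. Those overlaps were 87.3% of the rule's neurons and 94.1% of the panel's barcodes in WT, and 84.6% and 93.2% in runx1-/-. Just inside the rule, with 3 rule genes or under 12 UMIs, 11 WT neurons had a median of 9 panel genes and 9 runx1-/- neurons a median of 7. Just outside it, 4 WT barcodes with 3 to 8 panel genes and 8 runx1-/- barcodes with 2 to 12 missed only 1 of the 2 conditions.

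**Figure D1:**
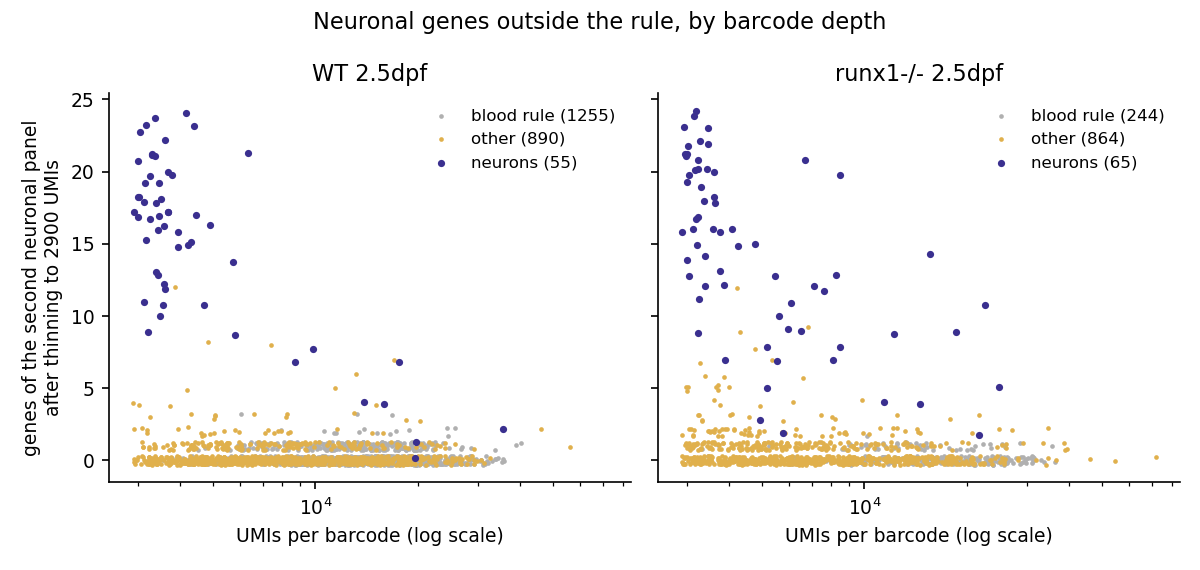
Each point is a barcode, with its UMIs on a log axis against the number of the 53 second-panel genes seen after thinning to 2900 UMIs (points are jittered by under 0.5 gene on the vertical axis). Neurons fill the upper left of both panels. Neurons over 8000 UMIs spread from 0 to 8 panel genes in WT (8 neurons) and from 2 to 20 in runx1-/- (12 neurons).

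Deep neurons differed from shallow ones. The 37 WT neurons under 4000 UMIs had 9 to 24 panel genes and the 37 runx1-/- neurons of that depth 7 to 24, and the medians were 17 and 18. Over 8000 UMIs there were 8 WT neurons with a median of 4 panel genes and 12 runx1-/- neurons with a median of 8.5. All of these 8 and 12 also met the rule of another cell class. In all, 8 of 55 WT neurons and 31 of 65 runx1-/- neurons met another class rule, which asked for at least 3 of up to 7 markers and 6 UMIs in the same way. The epidermal rule, with markers such as krt4 and krt5, was met by 4 WT and 30 runx1-/- neurons. The rule for leukocytes and progenitors was met by 4 and 1, the fibroblast rule by 1 and 3, the glial rule by 0 and 2 and the erythroid rule by 0 and 1. The same epidermal rule was met by 19.5% of blood barcodes in WT and by 89.8% in runx1-/-, so it did not single out epidermis in the second library. Its summed level was 8517 CPM (UMIs scaled to a total of 1000000) in WT neurons and 7972 CPM in runx1-/- neurons, with no marker at 0, against 15009 and 36306 CPM in the other barcodes. That level was uneven between neurons. The median neuron had 0.0303% of its UMIs in WT and 0.116% in runx1-/-, and the highest 12.8% and 8.83%. Neurons that met no other class rule had 0.0407% and 0.0859% in sum. Markers of muscle and cartilage were at 0 to 28.4 CPM in the neurons of either library, against 58.2 to 1469 CPM in the other barcodes. Those of neural crest and endothelium were higher in neurons, but from only 3 to 21 UMIs. Neural crest had 19.03 CPM in WT and 23.2 CPM in runx1-/- neurons, against 9.45 and 10.96 CPM elsewhere. Endothelium had 9.51 and 54.1 CPM, against 5.03 and 18.9 CPM. Glial markers, at 0% in the median neuron of both libraries, summed to 193 and 1774 CPM, against 89.02 and 198 CPM. Fibroblast markers, mainly col1a1a and col1a2, were at 653 and 882 CPM, against 1322 and 3647 CPM. For the fibroblast markers the median neuron had 0% in both libraries, and the highest 0.975% in WT and 1.61% in runx1-/-.

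The sort gene itself was not counted in the neurons. The gene itga2b (cd41; ENSDARG00000018687) had 0 UMIs in the neurons of both libraries, where a floor of 3 UMIs corresponds to 9.51 CPM in WT and 7.74 CPM in runx1-/-. It had only 48 and 17 UMIs in all other barcodes (1.74 and 1.44 CPM), so a level like that of the whole sort would not have been detectable in so few neurons. The transgene was not among the 26586 genes listed. The targeted gene runx1 (ENSDARG00000087646) had 0 UMIs in neurons of both libraries and 1 and 3 UMIs in the other barcodes, so it gives no check of the genotype labels. Its relative runx3 had 1 UMI in WT neurons and 0 in runx1-/- neurons, and the blood gene gata1a had 1 in each.

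Neurons were 2.50% of WT barcodes (exact Clopper-Pearson interval 1.89 to 3.24%) and 5.54% of runx1-/- barcodes (4.30 to 7.01%). The log2 ratio of the shares, runx1-/- to WT, was 1.15 (conditional binomial interval 0.61 to 1.69). Blood made up a different part of the libraries, with 1255 WT and 244 runx1-/- barcodes outside the neurons meeting a blood rule. Among barcodes that met no blood rule, neurons were 51 of 941 in WT (5.42%, 4.06 to 7.06%) and 63 of 927 in runx1-/- (6.80%, 5.26 to 8.61%). That log2 ratio was 0.33 with an interval from -0.23 to 0.89, which includes no difference. Depth moved these shares. Among barcodes under 4000 UMIs neurons were 26.6% in WT (37 of 139) and 18.4% in runx1-/- (37 of 201), and from 4000 UMIs up they were 0.873% (18 of 2061) and 2.88% (28 of 972).

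**Figure D2:**
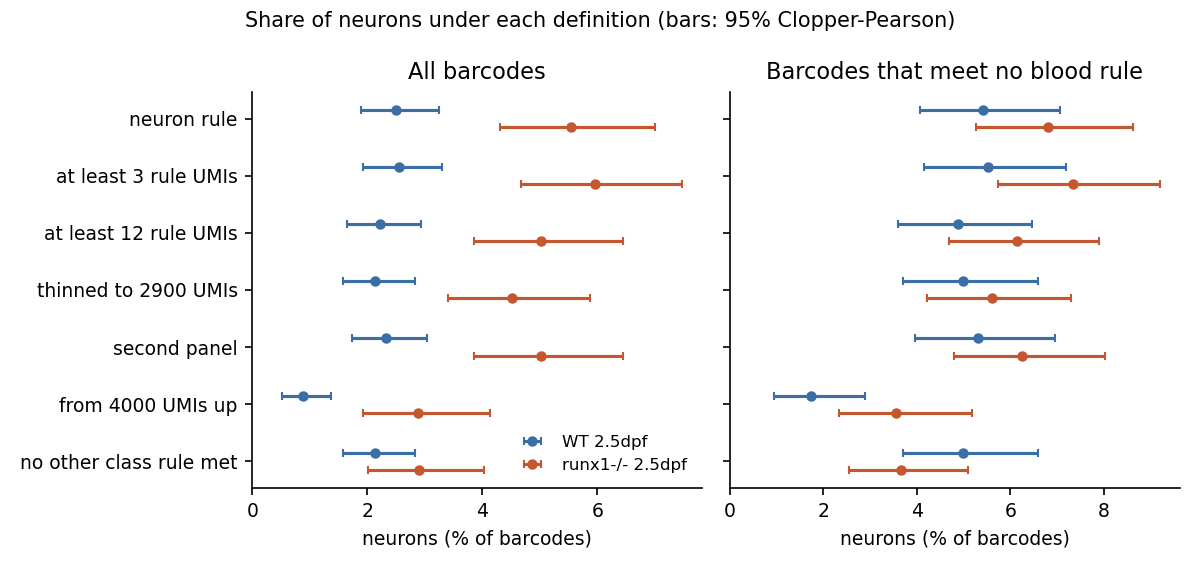
Points give the neurons as a percentage of barcodes in the WT and runx1-/- libraries under 7 definitions, with exact Clopper-Pearson intervals as bars. On the left, over all barcodes, runx1-/- lies above WT under every definition drawn. On the right, over barcodes that meet no blood rule, the intervals of the 2 libraries overlap in every row. The order turns when neurons that meet another class rule are left out of the count but kept among the barcodes it is divided by.

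Against the other barcodes of the same library, 559 of the 1441 genes with at least 20 UMIs in the neurons of each library (38.8%) were higher in neurons by a log2 ratio of at least 1 in both libraries. The log2 ratio compares CPM of summed UMIs with a prior of 1 count, and it is a description, since neurons were picked by related genes. The smaller of a gene's 2 ratios had a median of 0.55 over all 1441 genes. It had a median of 6.11 over the 29 genes of the second panel in this set, all 29 of which were past the limit of 1.

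The 20 genes with the highest ratios outside the rule included transmitter and vesicle genes. The glutamate decarboxylase gene gad2, which makes GABA, had 50 UMIs in WT neurons and 63 in runx1-/- neurons, with 2 UMIs in all other barcodes of each library. The vesicular GABA and glycine transporter gene slc32a1 had 52 and 80 UMIs in neurons and 9 and 4 in the other barcodes. Vesicle release was represented by stxbp1a (34 and 88 UMIs in neurons) and sv2a (25 and 93 UMIs), with 6 to 14 UMIs in the other barcodes. The LIM homeodomain gene lhx5 had 43 and 52 UMIs and its relative lhx1a 34 and 24. The reticulon gene rtn1b was the most widespread of the 20, present in 45 of 55 and 52 of 65 neurons. In contrast, all 52 UMIs of the homeodomain gene otpb in WT came from 1 neuron, and 44 of its 46 in runx1-/- did. The remaining 12 of the 20 were si:dkey-175g6.2, aplp1, stmn4l, st8sia5, diras1a, nrn1a, adgrb1b, olfm1b, vgf, si:dkey-238f9.1, mllt11 and adam22 with 21 to 148 UMIs in the neurons of each library.

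GABA was the transmitter with the most counts. Of 11 listed genes of GABA and glycine neurons, 10 were detected in neurons. They summed to 514 CPM in WT and 652 CPM in runx1-/-, against 8.80 and 15.2 CPM in the other barcodes. The list includes the transcription factor gene dlx5a, so these sums are not of transmitter genes alone. A gate of at least 2 UMIs over gad1a, gad1b, gad2 and slc32a1, set after the values were seen, held 21 of 55 WT neurons (38.2%, 25.4 to 52.3%) and 25 of 65 runx1-/- neurons (38.5%, 26.7 to 51.4%). With every barcode thinned to 2900 UMIs it held 17 (30.9%) and 21 (32.3%). It held 0 of 1255 blood and 0 of 890 other WT barcodes, and 0 of 244 and 0 of 864 in runx1-/-. The 2 genotypes therefore differed in this share by far less than either interval spans.

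The other transmitters had few counts. The vesicular glutamate transporter gene slc17a6b had 4 UMIs in 4 WT neurons and 14 UMIs in 10 runx1-/- neurons, and 3 of the 5 listed glutamatergic genes had none. The choline transporter gene slc5a7a had 6 UMIs in 1 WT neuron and 11 UMIs in 3 runx1-/- neurons. Among 17 monoaminergic and autonomic genes, 11 were at 0 in the neurons of both libraries, and the highest were the autonomic regulators phox2bb (16 and 4 UMIs) and phox2a (12 and 4). The neuropeptide gene adcyap1b, which encodes PACAP, was more widespread, with 78 UMIs in 16 WT neurons and 39 UMIs in 18 runx1-/- neurons. Few counts of a transporter in 3 prime libraries of this depth do not show that the transmitter is absent.

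The counts of gata3, tal1 and gata2a, which the gate did not use, lay mostly in the gated neurons. The gene gata3 (ENSDARG00000016526) had 37 UMIs in 14 of the 21 gated WT neurons and 1 UMI in the other 34. In runx1-/- it had 25 UMIs in 13 of the 25 gated neurons and 0 in the other 40. The gene gata2a (ENSDARG00000059327) had 17 UMIs in 6 gated WT neurons and 0 elsewhere among the neurons, and 14 UMIs in 6 gated against 4 UMIs in 3 other neurons in runx1-/-. For tal1 (ENSDARG00000019930) the gated neurons had 24 UMIs in 8 WT neurons and 25 UMIs in 9 runx1-/- neurons. The others had 4 UMIs in 3 neurons in each library. Of the WT counts of tal1, 14 UMIs came from 1 neuron. At least 1 of the 3 genes was present in 15 of 21 gated and 3 of 34 other WT neurons, and in 14 of 25 gated and 6 of 40 other runx1-/- neurons. All 3 were present in 5 and 4 gated neurons.

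Neurons held a large part of the GATA counts of the sort for their number. They held 17 of the 57 gata2a UMIs of the WT library (29.8%) and 18 of the 59 in runx1-/- (30.5%). For gata3 it was 38 of 128 UMIs in WT (29.7%) and 25 of 54 in runx1-/- (46.3%). For tal1, which was abundant in blood barcodes, the shares were 0.897% and 3.13%, and the second gata2 gene of zebrafish, gata2b, had 2 UMIs in WT neurons and 0 in runx1-/- neurons, with 490 and 20 in the other barcodes. The level of gata2a in WT neurons was 53.9 CPM, with an exact Poisson interval of 31.4 to 86.3 CPM. In runx1-/- neurons it was 46.4 CPM, from 27.5 to 73.3. The log2 ratio was -0.20 with an interval from -1.26 to 0.83. For gata3 the levels were 120.5 CPM (85.3 to 165) and 64.5 CPM (41.7 to 95.2), a log2 ratio of -0.87 (-1.69 to -0.14).

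Other genes also separated the gated neurons. The GABA transporter gene slc6a1b had 30 of its 35 WT UMIs and 45 of its 48 runx1-/- UMIs there, and the secretory granule gene vgf had 84 of 93 and 85 of 102. In the other direction, adcyap1b had 0 UMIs in gated WT neurons against 78 in the others, and 5 against 34 in runx1-/-. The sensory regulator pou4f1 had 0 against 46 and 1 against 25 UMIs, and slc17a6b had no UMI in a gated neuron of either library. The homeodomain gene emx2 was uneven between genotypes within the gate, with 39 UMIs in 11 WT neurons and 13 UMIs in 7 runx1-/- neurons.

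**Figure D3:**
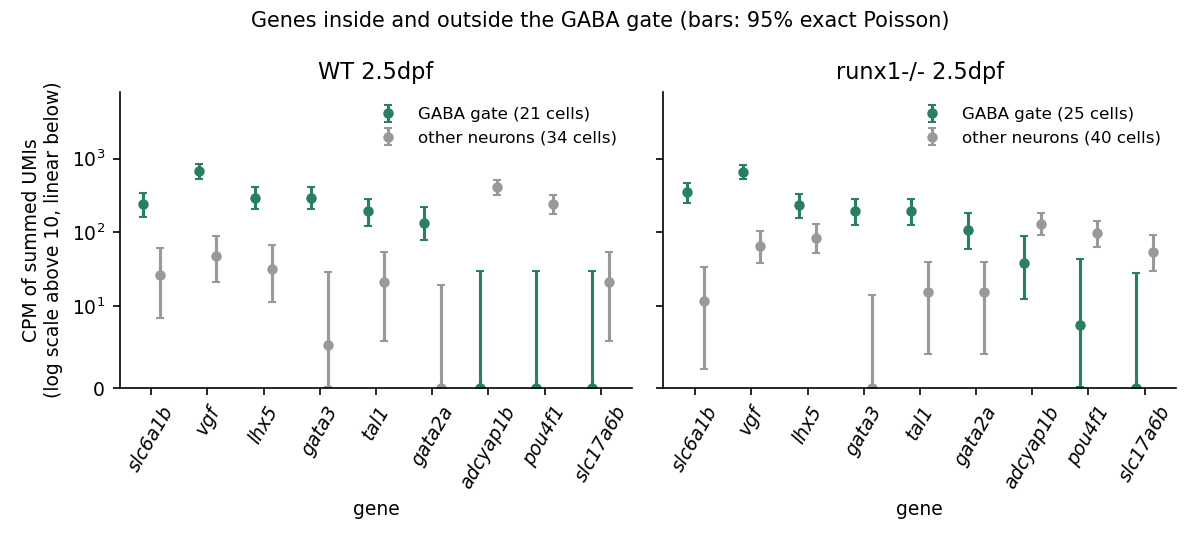
Points give CPM of summed UMIs in neurons inside and outside the GABA gate for 9 genes that the gate did not use, one panel per library, with exact Poisson intervals as bars. In both panels gata3, tal1 and gata2a lie higher inside the gate and adcyap1b, pou4f1 and slc17a6b outside it.

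Leiden clustering of the 120 neurons gave 8 groups, each described by the genes that lead it and with no test, since the same genes formed the groups. Group 1 was GABAergic-like, with 12 WT and 13 runx1-/- neurons, all inside the gate. Its leading genes included slc6a1a, slc6a1b, gad2, vgf and emx2, and vgf was present in 24 of the 25. At resolutions of 0.5 and 1.5 the same 25 neurons again formed 1 group. The other 21 gated neurons were spread over groups 2, 3, 4, 5, 7 and 8, with 2 to 5 in each.

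Groups 2 and 4 to 6 were shallow neurons like those of group 1. In group 5, 8 of 18 neurons met another class rule. In each of groups 1, 2, 4 and 6, 1 or 2 did. Group 2 (15 WT and 6 runx1-/-) was led by zic1, zic4, ebf2, tcf7l2 and neurod1, patterning and neurogenic regulators, and tcf7l2 had 83 UMIs in 9 of the 21. Group 4 (9 and 9) was led by lhx6 and dlx5a, each in 4 of 18 neurons, with bdnf in 8 and adcyap1b in 9. Group 5 (4 and 14) was led by bhlhe22, pax10, pax6b and six6b, each in 5 or 6 of 18 neurons, with meis2b in 11. Group 6 (5 and 3) was led by isl2b, rbpms2b and hmx4, and rbpms2b was present in all 8 neurons. The genes isl2b, rbpms2b, pax6b and six6b are known from the developing retina among other places.

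The last 3 groups were deeper and mostly met another class rule. Group 3 (9 and 12) had a median of 9832 UMIs, and 18 of its 21 neurons met another rule. Its leading genes included the hormone precursor gene pomca, the homeobox gene hesx1 and pvalb8, each in 5 or 6 neurons. Group 7 held 5 runx1-/- neurons, 4 of which met another rule, and was led by tulp1a, otx5, crx, gngt2a and nr2e3, genes of photoreceptors and the pineal. Group 8 (1 and 3) had keratin and collagen genes among its leading genes, with 811 UMIs of cyt1l in 4 neurons, and all 4 met another rule.

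**Figure D4:**
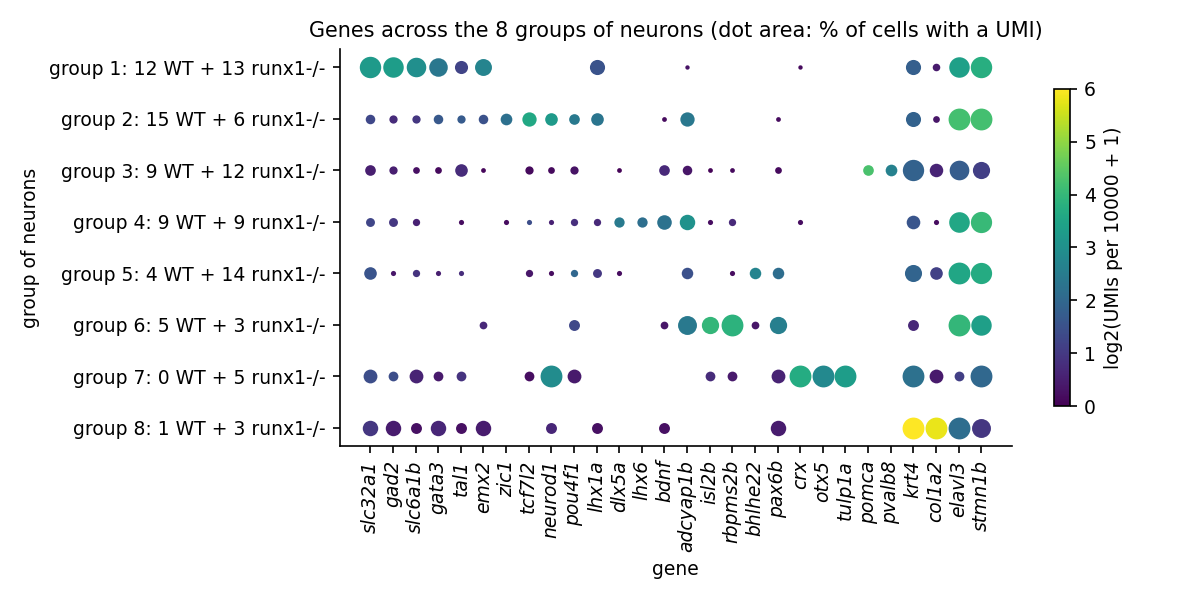
Dots give 28 genes across the 8 groups of neurons. Dot area is the percentage of the group's cells with a UMI and colour the summed UMIs per 10000 on a log2 scale. Outside group 7, where 1 of 5 neurons had elavl3, its dot stands for 81.0% or more of the neurons of each group, and that of stmn1b for 61.9% or more in all 8. Of the first 6 columns all but tal1 are strongest in group 1, tal1 is strongest in group 2, and krt4 and col1a2 are brightest in group 8.

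The counts of some hormone and peptide genes came from very few neurons, unlike those of adcyap1b and vgf. The 130 pomca UMIs of WT came from 3 neurons, with 99 in the highest, and the 345 of runx1-/- from 2. The thyrotropin subunit gene tshba had 160 UMIs in 2 runx1-/- neurons and 0 in WT, and the somatolactin gene smtlb had 173 UMIs in 1 WT neuron and 2 UMIs in 1 runx1-/- neuron. For galn, the galanin gene of the list, 370 of 371 UMIs came from 1 runx1-/- neuron of 14581 UMIs. That same barcode held all 34 nts UMIs, and 59.7% of its UMIs were haemoglobin. A difference between genotypes in these genes is a difference in 1 to 3 barcodes.

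Between genotypes, 2222 genes had at least 30 UMIs over both libraries in neurons. A log2 ratio of at least 1 in size was seen for 327 of them (14.7%), 130 higher (5.85%) and 197 lower (8.87%) in runx1-/-. This split depended on scaling. With trimmed mean of M-values factors of 1.07 for WT and 0.934 for runx1-/-, 172 were higher and 139 lower, since the median of all genes moved from -0.13 to 0.07. Single cells also carried part of it, because 1 neuron held at least 50% of a gene's UMIs for 39 of the 130 and 35 of the 197. Without the highest neuron of each library, chosen per gene, 117 higher (5.27%) and 165 lower (7.43%) genes were left. Of the 130 and 197 genes, 75 and 68 were past the limit in the same direction in the other barcodes too. The share of all 2222 genes past the limit there was not counted, so nothing is read from the size of these overlaps. The median ratio of all genes in the other barcodes was -0.29. The part of those barcodes that met a blood rule differed between the libraries.

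Haemoglobin genes were higher in the runx1-/- neurons and also in the other runx1-/- barcodes. They made up 0.0428% of WT neuron UMIs and 2.38% of runx1-/- neuron UMIs, and were counted in 12 of 55 and 65 of 65 neurons. One runx1-/- neuron, which also met the erythroid rule, held 8709 of the 9227 haemoglobin UMIs, and without it the share was 0.139%. The runx1-/- neurons had a median of 0.137% each, and other runx1-/- barcodes that met no erythroid rule had 0.290% in sum. In WT those values were 0% and 0.0507%. Erythroid barcodes themselves were 7.14% of the WT library and 14.2% of the runx1-/- library. These genes are close copies of each other, so reads may be split between them unevenly. Among named genes, si:ch211-5k11.12 had 1 and 1082 UMIs, hbae3 29 and 2253, hbbe1.1 36 and 2396, hbbe1.2 1 and 634 and si:ch211-5k11.2 14 and 1128. In runx1-/- the highest neuron held most UMIs of each of these genes. Its count was 2268 for hbbe1.1, 2048 for hbae3, 1036 for si:ch211-5k11.12, 610 for hbbe1.2 and 1086 for si:ch211-5k11.2. In WT the highest neuron held 22 of the 36 UMIs of hbbe1.1 and 26 of the 29 of hbae3. Log2 ratios without the highest neuron of each library therefore also depend on the few WT UMIs left. They do not rank the genes by how far they rested on the runx1-/- neuron. The ratio of hbbe1.1 was 5.72 with all neurons, 2.85 without the highest neuron of each library and 1.24 without neurons of another class. For hbae3 these values were 5.94, 5.46 and 1.95. Without the highest neurons the ratio was 5.41 for si:ch211-5k11.12, 4.50 for hbbe1.2 and 2.87 for si:ch211-5k11.2. The stanniocalcin-like gene stc1l had 4 and 1790 UMIs in neurons, 1117 of them in 1 neuron, and 17937 and 43657 UMIs in the other barcodes. Its log2 ratio was 8.22 with all neurons and 7.17 without the highest neuron of each library. In the other barcodes it was 2.51. Without neurons of another class, stc1l had under 30 UMIs over both libraries and was not compared.

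Immediate-early genes encode short-lived transcription factors and feedback regulators switched on within minutes of stimulation. These genes were lower in the summed counts of the runx1-/- neurons. Of 10 listed ones tested, 6 were lower by a log2 ratio of at least 1 and 0 were higher, beside 8.87% and 5.85% of all genes. Their median ratio was -1.16, against -0.13 over all genes. The counts were 700 and 360 UMIs for fosab, 151 and 68 for fosb, 160 and 94 for jun, 146 and 64 for btg2 and 63 and 15 for nr4a1, WT before runx1-/-. The neuronal activity gene npas4a had 23 and 8 UMIs. By contrast the log2 ratio was 0.03 for junbb, -0.06 for atf3 and 0.36 for fosl1a, the highest of the 10.

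The immediate-early list made up 0.506% of the UMIs of WT neurons and 0.256% of those of runx1-/- neurons. Single neurons varied more than this, from 0 to 1.80% with a median of 0.166% in WT and from 0 to 1.57% with a median of 0.134% in runx1-/-, so the genotypes overlapped widely and their medians were closer than their sums. Deep neurons gave most of the counts, with 1236 of 1597 UMIs of the list in WT and 812 of 993 in runx1-/- from neurons of 4000 UMIs or more. The log2 ratio of the summed list was -0.98. It was -0.96 in neurons under 4000 UMIs, -1.09 from 4000 UMIs up, -0.78 inside the GABA gate and -1.10 outside it. Neurons that met no other class rule had 0.327% and 0.163% in sum. Their medians went the other way, with 0.145% in WT and 0.166% in runx1-/-. In the other barcodes the log2 ratio of the summed list was 0.06 for those that met no blood rule and 0.38 for blood. With trimmed mean scaling 5 of the 10 genes were past the limit, and among neurons that met no other class rule 3 of the 7 genes still tested were, with a median of -0.59. For jun the log2 ratio was -1.06, and -0.82 without the highest neuron of each library. Each genotype is 1 capture, so capture and genotype cannot be told apart.

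Neuronal genes had ratios on both sides of 0. The 7 rule genes, which chose the neurons, had log2 ratios from -0.52 to 0.23, from which nothing is read. Of 32 second-panel genes tested, 3 were higher and 4 lower in runx1-/-, beside 5.85% and 8.87% of all genes, with a median of 0.06 (0.25 with trimmed mean scaling and -0.09 as a mean over neurons). The higher ones were sv2a, with 25 UMIs in 16 WT neurons and 93 UMIs in 37 runx1-/- neurons, stxbp1a, with 34 in 22 and 88 in 39, and the sodium pump gene atp1a3b, with 9 in 3 and 26 in 8. The lower ones were the RNA-binding protein gene celf4 (28 and 10 UMIs), the tubulin gene tuba2 (47 and 24), the transcription factor gene ebf3a (163 and 79) and the thymosin gene tmsb (370 and 218). For sv2a and stxbp1a the other barcodes had ratios of 1.59 and 1.45, from 6 to 14 UMIs in each library. Of 14 neurogenic genes tested, 2 were higher, among them neurod4 with 4 and 34 UMIs, and 5 were lower, among them the Notch target gene her9 with 28 and 7 UMIs, against the same 5.85% and 8.87% of all genes. The lower count was 2 as a mean over neurons, and without neurons of another class 1 of the 4 genes still tested was higher and 1 lower.

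Some regional transcription factor genes differed in the number of neurons that held them, others in few neurons. The engrailed gene eng1b had 67 UMIs in 13 WT neurons and 9 UMIs in 6 runx1-/- neurons. Of 25 listed forebrain and midbrain genes, only 3 had enough counts to be tested. They were emx2 (48 and 19 UMIs), tcf7l2 (72 and 28) and pax7a (41 in 5 neurons and 10 in 1). All 3 were lower in runx1-/- by a log2 ratio of at least 1, beside 8.87% of all genes. The retinal ganglion gene isl2b had 49 UMIs in 4 WT neurons and 7 UMIs in 4 runx1-/- neurons. In the other direction otpa had 0 UMIs in WT and 40 UMIs in 7 runx1-/- neurons, and tulp1a had 0 and 54, all in 5 neurons. Fewer neurons of a kind and less RNA per neuron cannot be told apart for these genes in the sums.

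Most of the other extremes lay in few cells. Lower in runx1-/- were fabp11a with 61 and 1 UMIs, lgals1l1 with 302 and 44, and si:ch211-286c4.6 with 30 and 0, of which 59, 298 and 30 came from 1 WT neuron each. The blood and mesoderm genes srgn (29 and 3 UMIs) and tcf15 (61 and 4) had 9948 and 19163 UMIs in the other WT barcodes. The genes si:dkey-85k7.7 (29 and 2) and zgc:110340 (36 and 4) were each present in 5 or 6 WT neurons. For pyyb, 50 of the 58 UMIs in runx1-/- came from 1 neuron, and WT neurons had 0. The brain lipid binding gene fabp7a, a glial marker, had 47 UMIs in 4 WT neurons and 666 UMIs in 16 runx1-/- neurons, with 327 in the highest. Its log2 ratio was 3.50 with all neurons and -0.08 without neurons of another class.

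Genes that were both widespread and different were selected after their values were seen. They had UMIs in at least 33.3% of the neurons of the higher library and stayed past the limit without the highest neuron. Of the 2222 genes compared, this left 34 higher and 73 lower genes. The lowest was si:ch211-195b15.8 (ENSDARG00000094836), with 219 UMIs in 42 of 55 WT neurons and 29 UMIs in 19 of 65 runx1-/- neurons. Its log2 ratio was -3.17 (-3.83 to -2.65), and in the other barcodes it was 0.06. The calcineurin regulator gene rcan1a (39 and 9 UMIs), the cadherin gene cdh8 (50 and 16) and the growth-arrest gene tob1a (121 and 46) had the same direction, with ratios from -2.28 to -1.67 in neurons and from -0.35 to 0.69 in the other barcodes. The activity-regulated gene egr4 had 103 and 38 UMIs, and its ratio moved from -1.71 to -0.82 when neurons that met another class rule were left out. Among the higher genes outside the haemoglobins were ythdf2 (8 and 45 UMIs), which encodes a reader of methylated RNA, acsl4a (12 and 46) and med21 (9 and 35), with ratios of 2.08, 1.57 and 1.57 in neurons and 0.23, 0.49 and -0.86 in the other barcodes. Other widespread genes moved in the same direction in the other barcodes. Of these barcodes, 1255 of 2145 in WT and 244 of 1108 in runx1-/- met a blood rule, so their ratios compare different mixes of cells. Ratios in neurons and in the other barcodes were 4.37 and 4.03 for si:ch211-114n24.6 and 1.64 and 1.61 for sdc4. They were -2.54 and -1.92 for timm8a, -2.29 and -0.96 for nr4a1 and -1.65 and -0.88 for psmd4a. Without neurons of another class, ythdf2, acsl4a, med21, si:ch211-114n24.6, sdc4, timm8a, nr4a1 and psmd4a had under 30 UMIs over both libraries and were not compared. The ratios of si:ch211-195b15.8, rcan1a, cdh8 and tob1a were then -2.70, -2.79, -2.83 and -1.44.

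**Figure D5:**
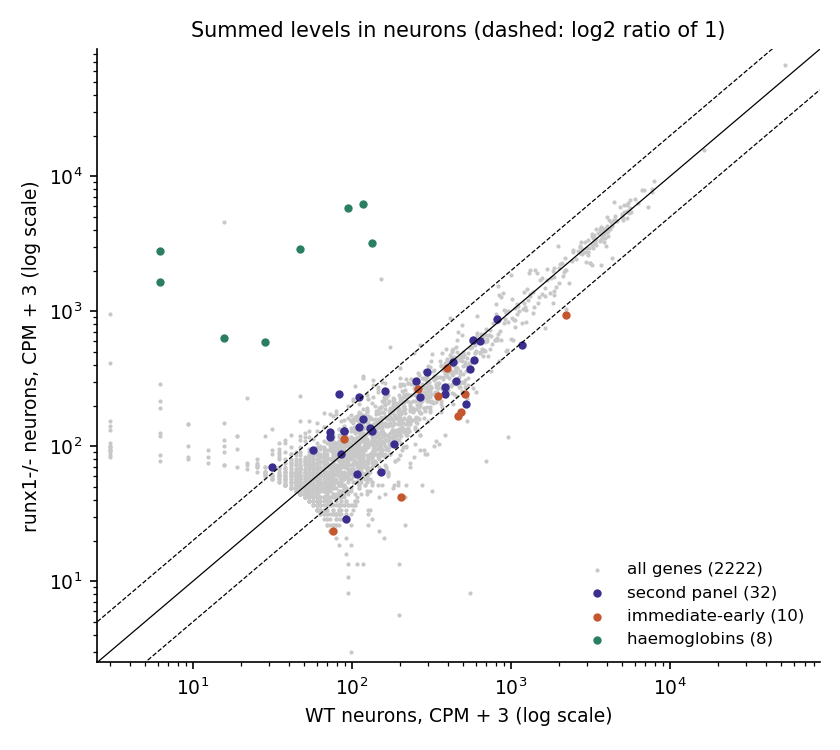
Points are the 2222 genes compared, with summed CPM plus 3 in WT neurons against runx1-/- neurons on log axes. The solid line marks equal levels and the dashed lines a log2 ratio of 1. Of the 32 tested genes of the second panel, 3 lie over the upper dashed line and 4 under the lower one, 6 of the 10 immediate-early genes lie under the lower dashed line, and the 8 haemoglobins lie far above the upper one.

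The same rule was applied to the later libraries as a description across ages. It chose 4 of 2728 barcodes in WT and 48 of 767 in runx1-/- (6.26%, 4.65 to 8.21%) at 6 dpf, and 4 of 2583 and 15 of 3323 at 10 dpf. At least 5 UMIs of germ-cell genes were present in 0 and 2 of those at 6 dpf and in 1 and 5 of those at 10 dpf. The 48 barcodes at 6 dpf had a median of 18 second-panel genes, the same as the neurons at 2.5 dpf before thinning. At 16 dpf it chose 220 WT, 334 bloodless runx1-/- and 182 recovered runx1-/- barcodes, of which 76.4%, 84.1% and 72.5% passed the same germ-cell limit, and those barcodes were not described as neurons. The smallest barcode at the later ages held 500 to 505 UMIs, a different limit from that at 2.5 dpf, and the shares are not compared across ages for that reason.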

How the data were processed

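UMI counts per gene and barcode were used as deposited by the authors, with no normalization. Cell Ranger 2.0.2 and the genome build GRCz10 are named in the submitters' processing notes, and libraries were made with a 3 prime kit from 10x Genomics per the labels. How cell barcodes were separated from empty droplets is not given in the sources used here. Barcodes with at least 500 UMIs, at least 200 genes and at most 20% mitochondrial UMIs were kept, which all deposited barcodes at 2.5 dpf met.

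Groups came from genotype and age in the labels, with 1 library per group. The neuron rule, the gene lists and the comparisons were chosen with earlier results of these data known. UMIs were summed over the neurons of a library and scaled to CPM. Log2 ratios carried a prior of 1 count, scaled to the total of each sum, and intervals were exact Poisson, exact Clopper-Pearson or conditional binomial. No test between genotypes was possible. Genes were named by size. They were the 7 rule genes, the 20 others highest against the rest (by the smaller ratio of both libraries, at least 20 UMIs in each), the 10 highest and 10 lowest between genotypes (at least 30 UMIs in all, mitochondrial genes left out), and list members with at least 10 UMIs. Genes named outside this rule are said to be chosen after their values were seen, or stand in a count of list members. Other classes (epidermis, fibroblast, cartilage, muscle, endothelium, glia, neural crest and 3 blood classes) were called by rules of the same form, at least 3 of 7 markers and 6 UMIs. Thinning drew 2900 UMIs per barcode without replacement. Scrublet, run through scanpy 1.11.5, marked doublets automatically at 5 barcodes in WT and 12 in runx1-/-, of which 0 and 2 were neurons. All were kept. As an alternative the 39 WT and 11 runx1-/- barcodes of highest score were removed, the number that a rate of 0.8% per 1000 barcodes gives. Neurons were clustered with the Leiden algorithm (igraph 0.11.9) at resolution 1, and trimmed mean of M-values factors came from edgeR 4.0.16. The ratio and its interval were checked on counts simulated without variation between neurons, so the check does not cover such variation. Listed symbols that did not match were not analysed here. Other alternatives were the thresholds of the rule, the mitochondrial limit, thinning, the prior, the minimum count, scaling, the barcodes compared with and the clustering resolution. No sequence is printed. One gene among those that lead the groups of neurons is not reported here.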

Additional observations from a re-analysis of the deposited data

How the results depend on the processing

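No paired analysis was possible because each genotype had 1 library and the labels give no replicate numbers, and for the same reason no replicate could be left out. Leaving out neurons that also met another class rule moved the shares in runx1-/-. The runx1-/- share became 2.90% of all and 3.67% of non-blood barcodes, the log2 ratio of shares 0.44 over all barcodes, and over non-blood barcodes it reversed to -0.45 (-1.13 to 0.22). The cause was not tested, and 89.8% of runx1-/- blood barcodes met the epidermal rule too. From 4000 UMIs up, chosen after seeing the data, the shares in WT and runx1-/- were 0.873% and 2.88% of all barcodes. Of non-blood barcodes they were 1.73% and 3.56%. The log2 ratios were 1.72 (0.82 to 2.66) and 1.04 (0.047 to 2.09). Neither interval, which covers counting error only, includes no difference. Genes past the limit between genotypes were 473 higher and 677 lower of 4924 tested with at least 10 UMIs (23.4%). With at least 100 UMIs they were 27 and 37 of 750 (8.53%). Without neurons of another class they were 33 and 92 of 1219 (10.3%), beside 14.7% of 2222 in the main values. Genes higher in neurons than in other barcodes were 105 of 359 tested (29.2%) with at least 100 UMIs in each library and 371 of 729 (50.9%) without neurons of another class. Leiden clustering gave 5 groups at resolution 0.5. For lgals1l1 the log2 ratio reversed to 1.99 without the highest neuron of each library. Of the alternatives to these main values, 72 stayed within their range and 19 did not. Leaving out the highest neuron and using the second panel in place of the rule were also chosen after seeing the data. Genes under 30 UMIs over both libraries were not compared in the main values, and with 55 and 65 neurons the intervals of most genes span more than a log2 ratio of 1.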

Other observations

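Voltage-gated ion channel genes, which make neurons excitable, summed to 745 CPM in WT neurons and 665 CPM in runx1-/- neurons, against 44.5 and 72.4 CPM in the other barcodes. Of 160 listed, 70 were detected in neurons. The calcium channel subunit gene cacnb4b had 46 UMIs in 31 WT neurons and 47 UMIs in 30 runx1-/- neurons, and cacng2b had 23 in 15 and 16 in 11. Of the 5 tested between genotypes, 0 had a log2 ratio of at least 1 in size, and 2 were lower past it as a mean over neurons, where 5.85% of all genes were higher and 8.87% lower by sums. The log2 ratio of the summed list was -0.16 in all neurons, -0.62 under 4000 UMIs and 0.41 from 4000 UMIs up.

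Hox genes, which mark position along the hindbrain and spinal cord, summed to 95 UMIs in WT neurons and 146 UMIs in runx1-/- neurons. At 2900 UMIs at least 1 was present in 8 of 55 WT neurons (14.5%) and 19 of 65 runx1-/- neurons (29.2%), beside 15.5% and 20.6% of the other non-blood barcodes and 2.23% and 1.64% of blood barcodes. The direction between genotypes turned with the neurons counted. The log2 ratio of the summed list was 0.32 in all neurons and -2.31 in those that met no other class rule, which held 95 UMIs in WT and 13 UMIs in runx1-/-.

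Cell-cycle genes took 0.0549% of the UMIs of all WT neurons and 0.0286% of those of all runx1-/- neurons. In the 47 and 34 neurons that met no other class rule they took 0.00861% and 0.0104%. In blood barcodes they took 0.175% and 0.0456%, and in the other barcodes that met no blood rule 0.112% and 0.0646%.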
